A study of Mnemiopsis leidyi with 50 samples.

Results

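Among the colloblast candidates of the ctenophore *Mnemiopsis leidyi*, 2 protein models, ML009152a and ML01591a, carry a match to the alpha carbonic anhydrase family. They are 2 of the 161 colloblast candidates counted here with a match in the study's domain annotation, a count that differs from the study's own. The count table holds 16548 protein models (ML2.2), and carbonic anhydrases outside the candidates were not looked for. Both models were selected on their measured levels in these embryos, because their counts appeared to run in opposite directions between early and late development. The levels, shares and fold changes of both models between those windows are therefore given as a description, with no test. Colloblast candidates are genes that the study found in most ctenophores but not in the lineages that lack colloblasts, so the name describes a pattern of presence across species and not a measured site of expression. The study also examined the expression of the candidates as a set in adult tentacle bulbs, comb rows and published single cells. Those data were not used here.

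Carbonic anhydrases are zinc enzymes that convert carbon dioxide and water into bicarbonate and a proton, and the reverse. In animals they serve pH regulation, gas exchange, ion transport and secretion, and different members of the family act inside the cell, at the membrane or outside the cell. Colloblasts are the adhesive cells of ctenophore tentacles, which release a sticky secretion on contact with prey and are replaced from the tentacle bulb throughout life. The role of ML009152a or ML01591a in these cells is known only as far as the domain match goes.

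The measurements come from whole embryos processed one by one with CEL-Seq, in which each embryo receives its own barcode and transcripts are read at their 3′ ends, and the values are read counts per protein model. No treatment or genotype is given in the labels, and the samples differ by hours post fertilization (hpf). The 50 embryos cover 26 time points. Those from 0 to 12 hpf have a single embryo each (18 embryos), and each of the 8 hours from 13 to 20 hpf has 4. The late window, 12–20 hpf, when the tentacles form, held 33 embryos, and the early window, 1–9 hpf, before tentacle outgrowth, held 14, with 10 and 11 hpf outside both windows. Replicates are separate embryos by their labels, but whether they shared parents or a spawning is not given in the sources used here.

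Total counts from 1 to 20 hpf lay between 18731 and 2079694 per embryo, with a median of 912684 in the late window and 820053 in the early window. Levels are given in CPM, the count scaled by the total of the embryo to a common depth. The embryo at 0 hpf had only 1119 counts and no count of either carbonic anhydrase, so that 1 count would have stood for 894 CPM, and it was left out. The 4 other shallow embryos, under the median total divided by 3, were those at 5.5 hpf, 15 hpf (replicate 3) and 19 hpf (replicates 1 and 3).

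The libraries fall into 2 groups by the share of reads that the counting step classed as ambiguous. A second library group of 30 embryos, all from 13 to 20 hpf, had 0.740–2.04% ambiguous and 55.4–78.4% unaligned reads, against 3.21–4.54% ambiguous and 45.6–50.7% unaligned reads in the first library group of 19 embryos. The first group holds every embryo from 1 to 12 hpf and 1 embryo each at 13 and 20 hpf (replicate 1 of both). The late and early windows are therefore nearly the same split as the library groups, and the main values are repeated for the first group alone, which has only 3 late embryos. In whole embryos, more cells of a type and more RNA per cell cannot be told apart.

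ML009152a was not counted at the start of development and was present in every embryo from 6 hpf on. It had 0 of 2417193 counts in the embryos at 1, 2 and 3 hpf together, which allows a level of up to 1.24 CPM (3 counts; for counting error only). The first counts came at 4 hpf (7.21 CPM), followed by 1.05 CPM at 4.5 hpf, 11.8 CPM at 5 hpf and 0 of 138478 counts in the shallow embryo at 5.5 hpf, which allows up to 21.7 CPM. From 6 to 9 hpf its level was 10.3, 13.0, 21.7, 2.16, 13.5, 7.53 and 5.93 CPM at 6, 6.5, 7, 7.5, 8, 8.5 and 9 hpf. These values rest on 2 to 12 counts each. The exact intervals at 7 hpf (10.8–38.8 CPM) and 7.5 hpf (0.262–7.82 CPM) did not overlap, but with 1 embryo per time point a difference between hours cannot be told apart from one between embryos. The level at 10, 11 and 12 hpf was 12.4, 20.2 and 16.6 CPM. Pooled over 10–12 hpf it was at least 13.6-fold higher than the floor of 1–3 hpf.

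From 13 hpf on, ML009152a was mostly above its earlier levels. The embryos at 13 hpf had 18.5, 39.8 and 20.3 CPM (second library group) and 14.5 CPM (first library group), those at 14 hpf had 42.7, 26.5, 30.8 and 32.8 CPM, and those at 16 hpf had 43.7, 61.6, 35.8 and 28.6 CPM. The 4 embryos at 15 hpf spread the most, with 65.4, 32.8, 480 and 15.4 CPM. The value of 480 CPM is that of the shallow replicate 3 and rests on 9 of 18731 counts, with a 95% exact Poisson interval of 220–912 CPM. At 17 hpf the level was 24.6, 24.0, 20.8 and 43.3 CPM, at 18 hpf 40.7, 52.5, 22.2 and 43.8 CPM, and at 19 hpf 50.2, 37.1, 29.7 and 9.50 CPM. The lowest late level, 9.50 CPM at 19 hpf, lies inside the early range. At 20 hpf the level was 18.7, 57.7 and 55.9 CPM in the embryos of the second group and 49.5 CPM in that of the first.

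**Figure D1:**
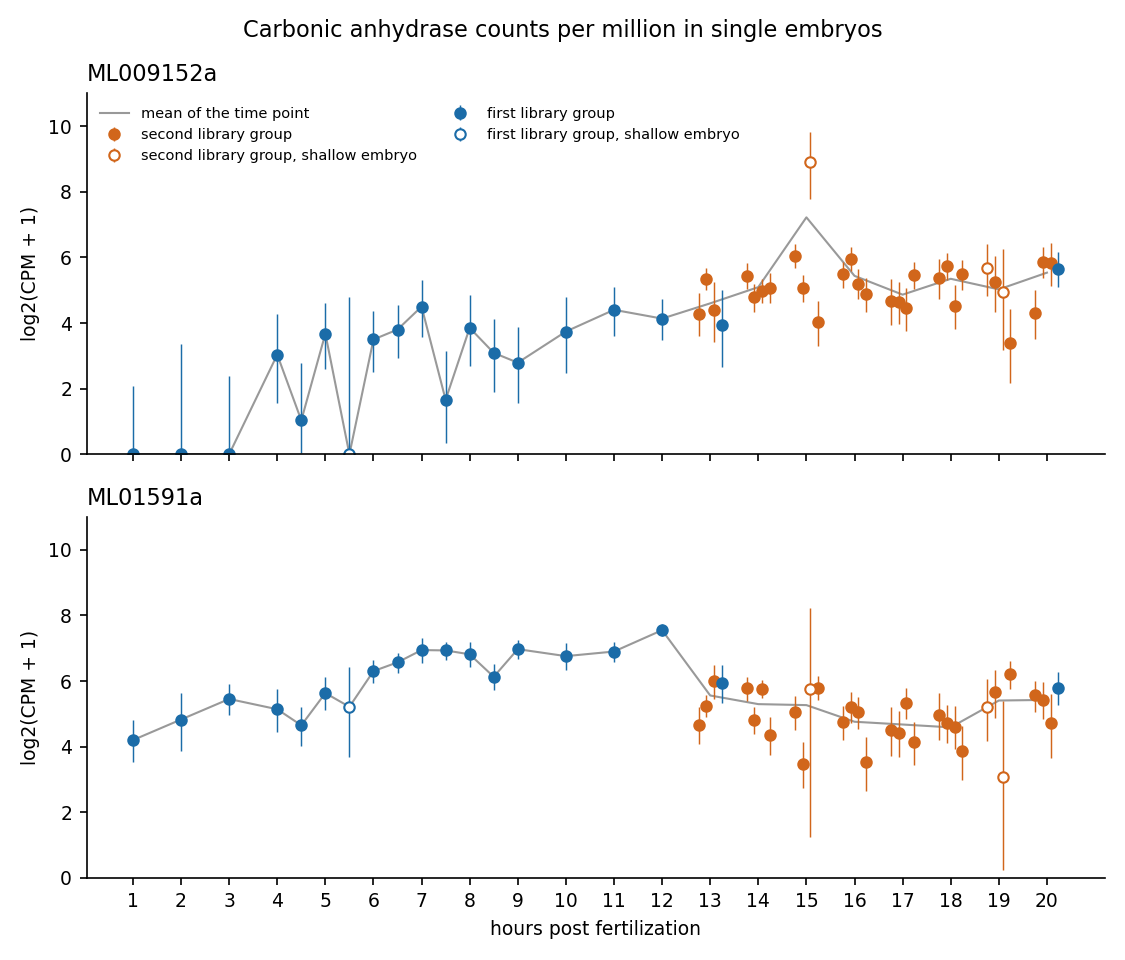
Level of ML009152a (top) and ML01591a (bottom) in each embryo, as log2(CPM + 1), against hours post fertilization. Points are embryos coloured by library group, open points are shallow embryos, bars are 95% exact Poisson intervals for counting error, and the line joins the mean of each time point. ML009152a is at 0 until 3 hpf and mostly between 9.50 and 65.4 CPM from 12 hpf on, apart from the shallow embryo at 15 hpf, whereas ML01591a climbs to 187 CPM at 12 hpf and lies between 7.42 and 72.8 CPM afterwards.

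ML01591a was counted in every embryo from 1 hpf on, so its transcript was present when that of ML009152a was not detected. Its level was 17.4, 27.4 and 42.8 CPM at 1, 2 and 3 hpf, and 34.3, 24.1, 48.6 and 36.1 CPM at 4, 4.5, 5 and 5.5 hpf. From 6 hpf it was higher, with 78.0, 94.0, 122, 121, 112, 69.0 and 125 CPM at 6, 6.5, 7, 7.5, 8, 8.5 and 9 hpf. These 7 values all lie above the 7 values up to 5.5 hpf. The level at 10, 11 and 12 hpf was 107, 118 and 187 CPM, and the embryo at 12 hpf had the highest value of all 49 embryos.

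The highest value of ML01591a was followed by lower levels. The embryo at 12 hpf held 10.7-fold the level of the embryo at 1 hpf (95% interval 6.79–17.9 from exact counting, 236 against 20 counts) and 1.58-fold that of the embryo at 11 hpf (1.23–2.04). The embryo at 13 hpf of the same library group had 60.3 CPM, 0.323 of the level at 12 hpf (0.205–0.489), and the embryo at 20 hpf of that group had 54.4 CPM, 0.292 of it (0.196–0.421). Pooled over 13 and 20 hpf of the first group the level was 56.8 CPM (43.1–73.4), still above the 28.1 CPM (21.8–35.7) of 1–3 hpf in the same group. Only the single embryo at 12 hpf represents that hour, so the spread between embryos there is not known. Of the 5940 models with a mean of at least 10 CPM over the 25 time points from 1 to 20 hpf, 111 (1.87%) had their highest time point mean at 12 hpf, and 436 (7.34%) had a ratio of 12 hpf to 13 hpf in the first group at least as large as that of ML01591a.

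From 13 hpf on, ML01591a varied as much within an hour as between hours. The second-group embryos at 13 hpf had 24.4, 37.1 and 62.9 CPM, those at 14 hpf had 53.8, 27.1, 52.9 and 19.4 CPM, and those at 15 hpf had 32.2, 10.0, 53.4 and 54.3 CPM, of which 53.4 CPM is a single count in the shallow embryo. At 16 hpf the level was 25.7, 36.0, 32.1 and 10.47 CPM, at 17 hpf 21.7, 20.4, 39.4 and 16.6 CPM, and at 18 hpf 30.1, 25.2, 23.4 and 13.5 CPM. These hours hold the lowest means of the 8. At 19 hpf the level was 35.9, 49.4, 7.42 and 72.8 CPM, where 7.42 CPM is again 1 count in a shallow embryo, and at 20 hpf it was 46.2, 42.1 and 25.2 CPM in the embryos of the second group.

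Among the hours from 13 to 20 hpf, those next to each other in the order of means could not be ranked for either model. For ML009152a the means ran, from high to low, 149 ± 222 CPM (15 hpf), 45.4 ± 18.2 (20 hpf), 42.4 ± 14.2 (16 hpf), 39.8 ± 12.8 (18 hpf), 33.2 ± 6.86 (14 hpf), 31.6 ± 17.0 (19 hpf), 28.2 ± 10.2 (17 hpf) and 23.3 ± 11.3 (13 hpf; SD, n = 4 each). All 7 pairs of neighbours in this order overlapped, and without the shallow embryos 15 hpf moved to the fourth place with 37.9 ± 25.4 CPM (n = 3). The highest and the lowest hour overlapped too (15.4–480 CPM at 15 hpf and 14.5–39.8 CPM at 13 hpf). For ML01591a the order was 46.2 ± 18.6 CPM (13 hpf), 42.0 ± 12.3 (20 hpf), 41.4 ± 27.3 (19 hpf), 38.3 ± 17.7 (14 hpf), 37.5 ± 20.95 (15 hpf), 26.1 ± 11.2 (16 hpf), 24.5 ± 10.2 (17 hpf) and 23.0 ± 6.99 (18 hpf). Here too all 7 pairs of neighbours overlapped, as did 13 hpf (24.4–62.9 CPM) and 18 hpf (13.5–30.1 CPM). Without the shallow embryos 19 hpf came first with 61.1 ± 16.5 CPM (n = 2), and its embryos (49.4 and 72.8 CPM) lay above those at 18 hpf. The variance between the 4 embryos of an hour was compared with what counting alone gives. The ratio was 1.93 to 43.2 for ML009152a and 1.504 to 14.1 for ML01591a. Each ratio rests on 4 embryos, and whether the lowest ones lie beyond counting error was not tested.

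Pooled over the second library group, the later and the earlier hours gave ratios close to 1 for both models. ML009152a had 341 of 9910549 counts at 17–20 hpf and 622 of 17394018 counts at 13–16 hpf, a ratio of 0.962 (95% interval 0.841–1.10). ML01591a had 304 counts at 17–20 hpf and 586 at 13–16 hpf, a ratio of 0.910 (0.790–1.05). The intervals cover counting error only and are too narrow by the spread between embryos given above.

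Over the whole windows ML009152a was higher and ML01591a lower on average in the late embryos, which is the pattern the models were chosen for. ML009152a averaged 48.1 ± 79.0 CPM at 12–20 hpf and 6.72 ± 6.69 CPM at 1–9 hpf (SD, n = 33 and 14), and 34.2 ± 15.2 CPM at 12–20 hpf without the shallow embryos (n = 30). Of the 33 late embryos, 25 lay above the highest early embryo (21.7 CPM), and the windows overlapped in the other 8. ML01591a averaged 39.5 ± 31.3 CPM at 12–20 hpf and 67.9 ± 40.1 CPM at 1–9 hpf. Its windows overlapped widely, with 5 late embryos below the lowest early one (17.4 CPM) and 1, at 12 hpf, above the highest (125 CPM). Within the first library group the 3 embryos at 12–20 hpf averaged 26.8 ± 19.6 CPM of ML009152a, and 1 of the 3 lay above the highest early embryo. Those 3 embryos averaged 100.4 ± 74.6 CPM of ML01591a, above and not below the early mean, with 1 embryo above the early range and none below it.

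The fitted log2 fold change of 12–20 over 1–9 hpf was 2.27 (SE 0.39) for ML009152a and −0.93 (SE 0.30) for ML01591a, where the median of all 6852 models tested was 0.27. The scaling moved that median to 0.53 with RLE size factors, which placed ML009152a at 2.53 (SE 0.39) and ML01591a at −0.68 (SE 0.29), so the distance of each model from the median of all models was nearly unchanged. In the fit over all embryos 3046 of the 6852 models passed an adjusted p of 0.05 as higher (44.5%) and 2178 as lower (31.8%) in the late window, so that both directions were common among all models.

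The lower late level of ML01591a was not seen once the library group was held constant. With the library group as a term its log2 fold change of 12–20 over 1–9 hpf was 0.66 (SE 0.48; median of all models 0.17), and within the first library group it was 0.74 (SE 0.57; median −0.01). That value rests on the embryo at 12 hpf, since 13 and 20 hpf over 1–9 hpf within the group gave −0.03 (SE 0.72; median 0.09). ML009152a stayed higher in the late embryos in each of these fits. Its log2 fold change was 2.06 (SE 0.63) with the library group as a term, 2.12 (SE 0.86) within the first group and 2.47 (SE 1.01) within it without 12 hpf. These values are not independent, since the second group has no early embryo and all rest on the few late embryos of the first group. Those had 16.6, 14.5 and 49.5 CPM at 12, 13 and 20 hpf, and only that at 20 hpf exceeded the highest early embryo (21.7 CPM).

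The 2 hours with embryos of both library groups allow a direct comparison of the groups. At 13 and 20 hpf the log2 difference of the second over the first group was −0.78 (SE 0.41) for ML01591a and −0.01 (SE 0.56) for ML009152a, where the median of all 6605 models was 0.09. Pooled counts of ML01591a at 13 hpf gave 37.0 CPM in the second group and 60.3 CPM in the first, a ratio of 0.614 (95% interval 0.397–0.985), and at 20 hpf 40.5 CPM in the second and 54.4 CPM in the first, a ratio of 0.745 (0.488–1.16). ML009152a gave 30.4 CPM in the second group and 14.5 CPM in the first at 13 hpf (ratio 2.104, 0.934–5.87), and 40.0 CPM in the second and 49.5 CPM in the first at 20 hpf (ratio 0.809, 0.521–1.28). The first group has a single embryo at each of these hours, so its spread is not known.

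**Figure D2:**
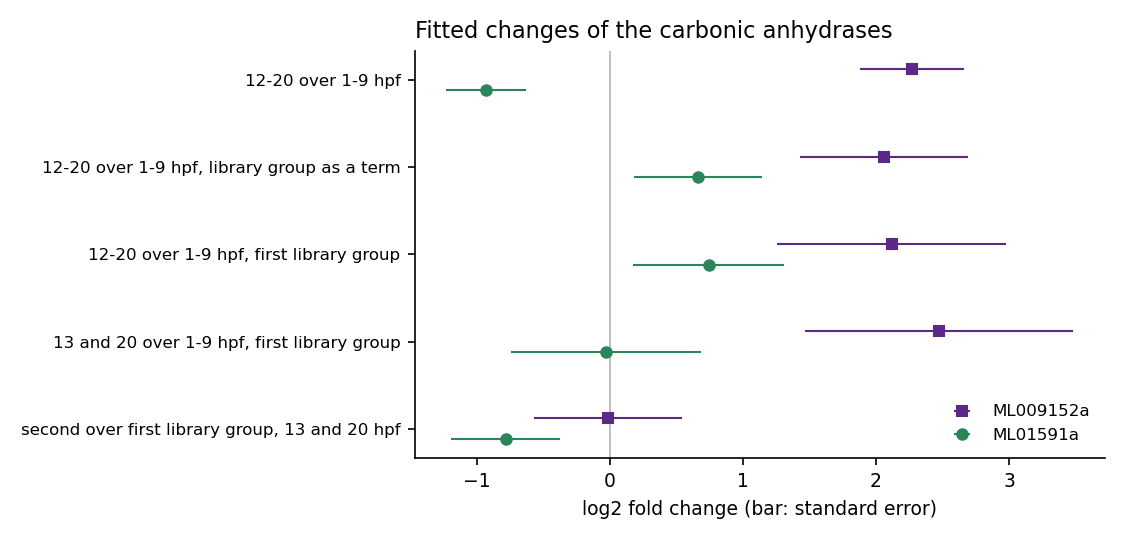
Fitted log2 fold changes of ML009152a (squares) and ML01591a (circles), with standard errors as bars, for late over early embryos in 4 fits and for the second over the first library group at equal hours. ML009152a lies between 2.06 and 2.47 in all 4 fits of late over early embryos, whereas ML01591a is at −0.93 over all embryos and at 0.66, 0.74 and −0.03 in the fits that hold the library group constant.

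Within the first library group the courses of both models were not opposite over most of their length. From 1 to 12 hpf log2(CPM + 1) of the 2 models had a Pearson r of 0.763 and a Spearman rho of 0.704 over 17 embryos, and over all 19 embryos of the group r was 0.656 and rho 0.597. Over the 30 embryos of the second group r was 0.02 and rho −0.07, and without the shallow embryos r was −0.27 and rho −0.20 (27 embryos). These values are descriptive, since the embryos are ordered in time and the values of an embryo share 1 library and its depth. The embryos of the first group parted after 12 hpf, where ML009152a at 20 hpf was 2.98-fold its level at 12 hpf (95% interval 1.65–5.48) while ML01591a was 0.292 of it. At 13 hpf ML009152a was at 0.872 of its level at 12 hpf, with a counting interval of 0.288–2.23 around 6 counts.

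The share of ML009152a among the counts of both carbonic anhydrases does not depend on the depth or the scaling of an embryo. CEL-Seq reads 3′ ends and the capture of either transcript was not measured, so the share was compared between embryos and not read as a ratio of molecules. It averaged 51.8 ± 20.3% at 12–20 hpf and 7.63 ± 6.97% at 1–9 hpf (SD, n = 33 and 14), a difference of 44.1 percentage points. Within the first library group it averaged 25.05 ± 20.3% at 12–20 hpf (n = 3) against the same early embryos, a difference of 17.4 points, and 1 of the 3 late embryos exceeded the highest early share. Of the late embryos, 30 of 33 had a share above the highest early one, 19.5% at 5 hpf. The other 3 were the first-group embryos at 12 and 13 hpf, with 8.17% (95% Clopper-Pearson interval 5.13–12.2%) and 19.4% (7.45–37.5%), and replicate 4 at 19 hpf, with 11.5% (4.35–23.4%).

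The share was at or below 19.5% in every embryo through 12 hpf and in the first-group embryo at 13 hpf, and most second-group embryos from 13 hpf on were above it. Pooled by stage it was 0 of 68 counts at 1–3 hpf, which leaves an upper limit of 5.28%, then 14.0% at 4–5.5 hpf (7.66–22.7%), 8.68% at 6–9 hpf (6.55–11.2%) and 10.0% at 10–12 hpf (7.34–13.3%). In the second library group it was 51.5% at 13–16 hpf (48.6–54.3%) and 52.9% at 17–20 hpf (48.9–56.8%). At 20 hpf the second-group embryos had 28.8%, 57.8% and 69.0%, and the first-group embryo, with 47.6% (34.9–60.6%), lay inside their range. At 13 hpf the second-group embryos had 43.2%, 51.8% and 24.4%, and the first-group embryo, with 19.4%, lay below all 3, although its interval overlapped those of the embryos at 43.2% and 24.4%. The second-group embryos spread from 11.5% to 90.0% over 13–20 hpf, and the highest value is that of the shallow embryo at 15 hpf, with 9 of 10 counts.

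**Figure D3:**
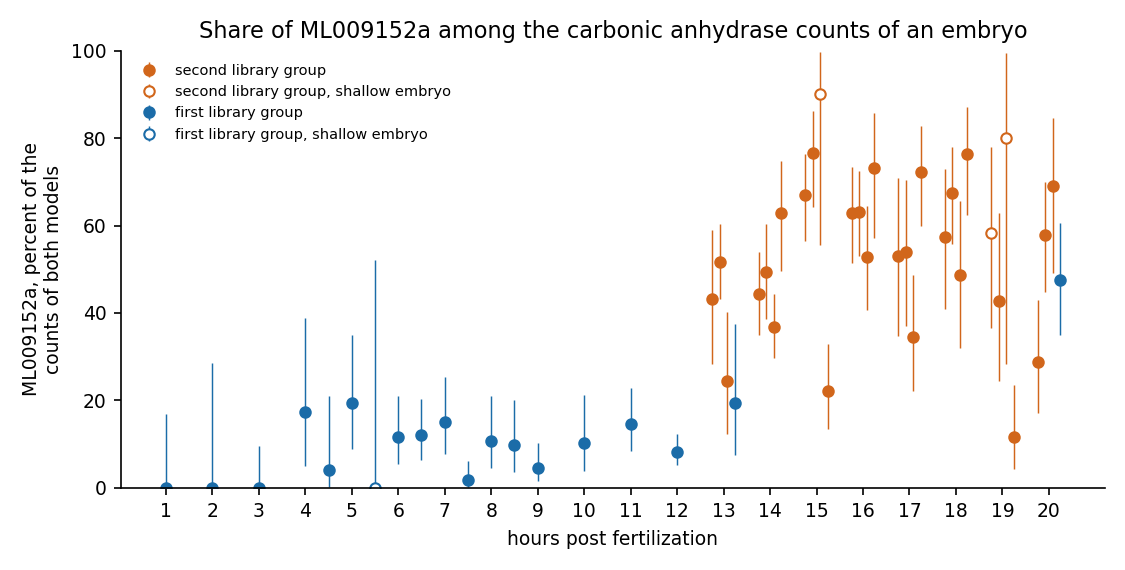
Share of ML009152a among the counts of both carbonic anhydrases in each embryo (percent) against hours post fertilization, with 95% Clopper-Pearson intervals as bars, colours for the library groups and open points for shallow embryos. The embryos up to 12 hpf lie between 0% and 19.5%, and those from 13 hpf on between 11.5% and 90.0%, with 1 embryo of the first group at 47.6% at 20 hpf.

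Models with a similar course were ranked by the Pearson r of log2(CPM + 1) with each carbonic anhydrase over the 25 time point means. The time points share libraries and depth, so r describes a likeness of courses in these libraries, with no test. The closest to ML009152a among the 5939 other models with a mean of at least 10 CPM were ML02803a (r = 0.916) and ML13046a (r = 0.899), neither of which is a candidate of the study. ML02803a had 0 counts at 1, 2 and 3 hpf, as had 456 of the 5940 models (7.68%), and then 28.5 CPM at 12 hpf and 53.6 CPM at 15 hpf as time point means. ML13046a had 18.2 CPM at 12 hpf and 41.4 CPM at 20 hpf.

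Among the 111 colloblast or tentacle candidates with at least 5 CPM, the closest to ML009152a were the colloblast candidates ML01537a (r = 0.877), ML082715a (r = 0.859) and ML25122a (r = 0.834). ML01537a carries von Willebrand factor type D, thyroglobulin type-1 and leucine-rich repeat matches, of which the first is found in animal mucins and adhesive proteins, while ML082715a and ML25122a have no named domain. The mean of ML01537a was 15.8 CPM at 12 hpf and 27.3 CPM at 20 hpf, and that of ML25122a was 24.5 CPM at 12 hpf and 126 CPM at 13 hpf. That of ML082715a was 21.2 CPM at 8 hpf, 17.5 CPM at 13 hpf and 35.3 CPM at 17 hpf. The ranks depended on the setting. Over the 49 single embryos ML02803a stayed first, while ML13046a ranked 706 among the 5939 models. Among the 111 candidates ML01537a, ML082715a and ML25122a ranked 8, 54 and 2 there. Over the 30 embryos of the second library group alone only ML02803a kept a value of r above 0.5 with ML009152a (r = 0.623), and ML13046a and ML082715a turned to −0.66 and −0.64. In that group the shallow embryo at 15 hpf holds the highest value of ML009152a.

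The closest to ML01591a were ML128432a (r = 0.883) and ML128431a (r = 0.862), whose identifiers differ only in the final digit. ML128432a had 0 counts at 1 and 2 hpf and time point means of 230 CPM at 9 hpf, 39.5 CPM at 12 hpf and 7.59 CPM at 20 hpf. ML128431a had 1.74 CPM at 1 hpf, 1394 CPM at 8.5 hpf, 162 CPM at 12 hpf and 70.3 CPM at 20 hpf. Both were highest before 12 hpf, the hour at which ML01591a was highest.

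None of the 111 candidates with at least 5 CPM followed ML01591a as closely. They are a far smaller pool than the 5939 models with at least 10 CPM, so the 2 sets of r are not compared further. The 3 closest candidates were ML148939a (r = 0.601, colloblast, no named domain), ML05519a (r = 0.512, tentacle), which matches the rhodopsin-like G protein-coupled receptors, a family of membrane receptors, and ML148940a (r = 0.503, tentacle), the paired-class homeobox transcription factor MlPRD10a. MlPRD10a had its highest mean at 6 hpf (157 CPM) and 55.2 CPM at 20 hpf, and ML05519a had 84.8 CPM at 6 hpf and 3.41 CPM at 20 hpf. The ranks of ML148939a, ML05519a and ML148940a among the 111 candidates were 6, 59 and 16 within the first library group. Over the 49 single embryos they were 3, 1 and 8. None of the 5 models reached an r of 0.5 with ML01591a over the 30 embryos of the second group, where r lay between −0.26 (ML148940a) and 0.27 (ML05519a).

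**Figure D4:**
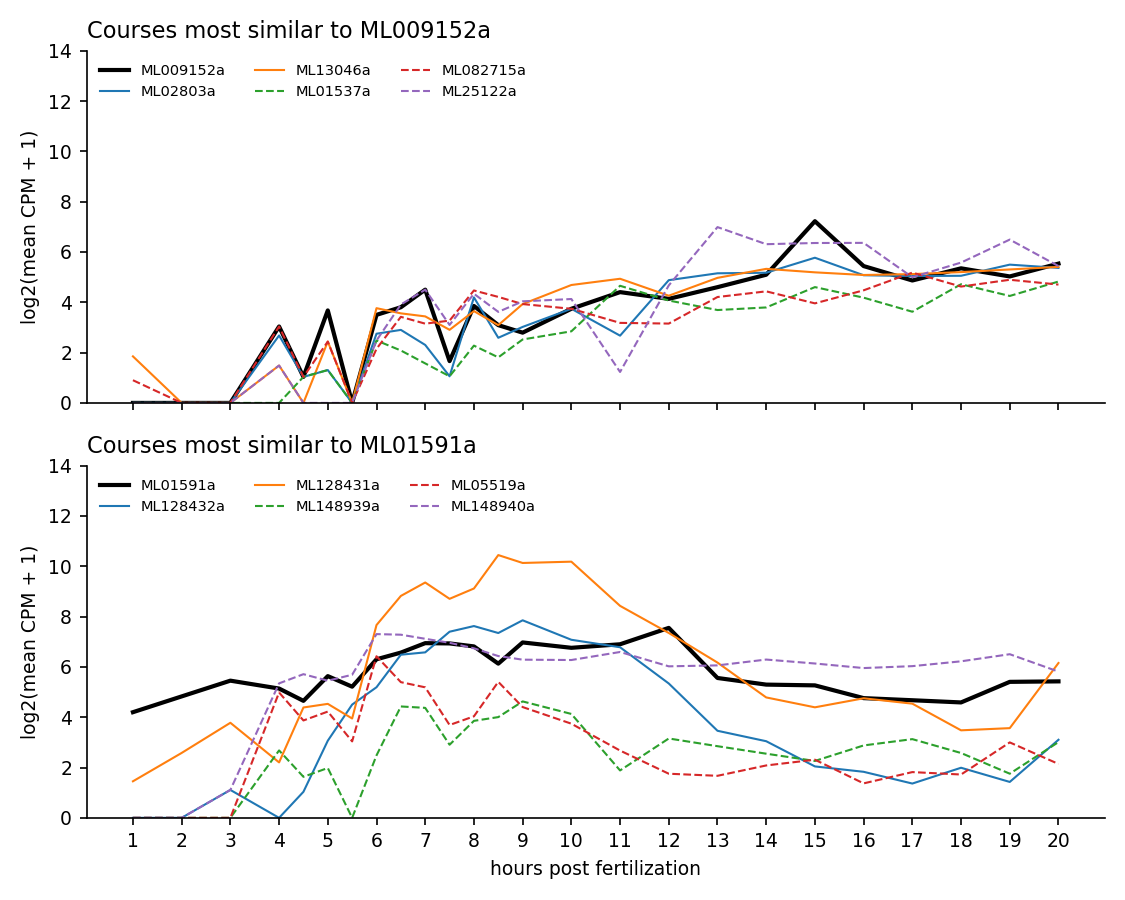
Courses of the models most like ML009152a (top) and ML01591a (bottom), as log2(mean CPM + 1) of each time point against hours post fertilization; the carbonic anhydrase is the thick black line, solid colours are the closest of all models and dashed colours the closest candidates. The models in the top panel lie at or under 2.61 CPM until 3 hpf and are all above that from 13 hpf on. Among them ML082715a is already at 21.2 CPM at 8 hpf, against 17.5 CPM at 13 hpf. In the bottom panel ML128431a reaches 1394 CPM at 8.5 hpf before ML01591a reaches 187 CPM at 12 hpf.

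The other metabolic enzymes among the colloblast candidates gave the setting for both carbonic anhydrases. The list holds 11 models of the families named beside carbonic anhydrase in the study, namely cytochrome P450 (oxidation of lipids and foreign compounds), glutaredoxin (reduction of disulphides with glutathione), nucleoside hydrolase (release of bases from nucleosides) and acetyltransferase. It was drawn up with earlier results of these data known. Of the 11 models, 7 passed the filter on low counts in the comparison of the windows, 3 had counts but did not pass it and 1 had no count.

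All 7 tested enzymes were higher at 12–20 hpf than at 1–9 hpf with an adjusted p under 0.05 (edgeR quasi-likelihood test, Benjamini-Hochberg), where 44.5% of all models tested were, and none was lower, where 31.8% were. Their median log2 fold change was 3.75 and that of all models 0.27. A model with hardly any early counts passes the filter through its late level and could hardly have been called lower. The lack of lower calls therefore says little, and the 7 models do not speak for all 11. Of those that did not pass the filter, the nucleoside hydrolase ML01924a averaged 5.50 ± 3.05 CPM at 12–20 hpf and 7.94 ± 5.51 CPM at 1–9 hpf, the cytochrome P450 ML04064a 6.85 ± 9.12 CPM at 12–20 hpf and 0.406 ± 0.733 CPM at 1–9 hpf, and the cytochrome P450 ML20765a 1.53 ± 3.89 CPM at 12–20 hpf and no count at 1–9 hpf.

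The 2 enzymes with the smallest p were the glutaredoxin ML047916a and the nucleoside hydrolase ML003023a. ML047916a had 14.5 to 216 CPM (median 78.8) in the 33 late embryos and 0 to 14.4 CPM (median 4.09) in the 14 early ones. The windows met without overlap, at 14.46 CPM in the lowest late embryo and 14.44 CPM in the highest early one. That gap is below the 0.481 CPM of 1 count in the deepest embryo, so counting error alone covers it. The log2 fold change of ML047916a was 3.92 (SE 0.37, adjusted p = 2.8e-13, edgeR). ML003023a had 4.82 to 267 CPM (median 24.96) in the late embryos and 0 to 7.22 CPM (median 0) in the early ones, and 32 of the 33 late embryos lay above the highest early one. Its log2 fold change was 3.75 (SE 0.44, adjusted p = 1.7e-10, edgeR). Both models passed the filter on low counts through their late levels, so a lower late level could hardly have been called for either. ML003023a did not pass the filter within the first library group. The windows are nearly the library groups, as described above. The fit with a library group term held the same 7 enzymes, chosen by the same filter. In it 6 of the 7 were still higher, where 1720 of the 6852 models tested were. The median log2 fold change of the 7 was 3.13 there (median of all models 0.17). Within the first library group 4 of the 11 could be tested and 2 were higher in the late embryos, where 13.3% of the 6058 models tested were.

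Across the hours from 13 to 20 hpf in the second library group, 5 of the 8 enzymes tested differed between hours (edgeR, adjusted p under 0.05), where 3.03% of the 8940 models tested did. That count rests on few embryos, since it was 2 without replicate 2 or replicate 3 at 13 hpf and 3 without replicate 4 at 13 hpf or replicate 1 or 4 at 14 hpf. ML047916a was among the 5 (adjusted p = 0.011, edgeR) and ML003023a was not (adjusted p = 0.91, edgeR).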

How the data were processed

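The deposited values are raw read counts per ML2.2 protein model that the authors made with HTSeq 0.5.4p3 from CEL-Seq reads of single *M. leidyi* embryos, after base calling with CASAVA 1.8 and alignment with Bowtie2 2.1.0 (submitters' processing notes). No source used here gives the genome build, the counting options or whether molecular identifiers were collapsed, so reads may not be independent molecules. The 5 HTSeq classes of uncounted reads were kept out of totals and tests, and counted reads made up 10.2–33.8% of the reads of an embryo. No reference sequence of these models was used here.

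CPM were computed from the counts without a length correction. All 16548 models entered edgeR 4.0.16 (TMM factors, filterByExpr, quasi-likelihood F-test, Benjamini-Hochberg adjustment, threshold 0.05), with DESeq2 1.42.0 as an alternative, in R 4.3.3; the scripts were tested on simulated data. SEs are the fold change divided by the root of F. Intervals (95%) are exact Poisson, exact ratio or Clopper-Pearson intervals, and floors are 3 counts; both cover counting error only. The library groups were split at 2.5% ambiguous reads. Tables, intervals and figures were made with Python 3.11.15 and its packages scipy 1.17.1, pandas 2.3.3, matplotlib 3.10.9 and numpy 2.4.6.

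The members, lists, windows and tests were chosen with earlier results of these data known. The models named are both carbonic anhydrases, the 2 tested enzymes with the smallest p in each direction, and, per carbonic anhydrase, the 2 models (at least 10 CPM) and 3 candidates (at least 5 CPM) of the most similar course; the enzymes that did not pass the filter were named after their values were seen. P-values measure the spread between these embryos only.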

Additional observations from a re-analysis of the deposited data

Results flagged for a closer look

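Dixon's ratio was taken in 24 groups of 4 embryos (8 hours, with the levels of both carbonic anhydrases and their share). In 2 groups an embryo lay so far from the other 3 that the ratio passed its 95% critical value. Chance places about 1 group in 20 there, so 2 of 24 is near what chance alone gives. The groups are also not independent, because the share is computed from the same counts as the levels. Both embryos are therefore listed as a description only. ML009152a at 15 hpf was at 480 CPM in replicate 3 (ratio 0.892), a library of 18731 counts in which 9 counts make up the value. ML009152a at 17 hpf was at 43.3 CPM in replicate 4 (ratio 0.832, barely above the critical value), while the other 3 embryos lay between 20.8 and 24.6 CPM. That library holds 1085575 counts, of which 47 are of ML009152a, and its ML01591a level of 16.6 CPM was the lowest of the hour.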

How the results depend on the processing

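The settings were scaling, filter, window limits, tool, library group, shallow embryos and each embryo left out. The log2 fold change of ML009152a over the windows stayed positive in all 11 settings and was 2.12 to 2.51 without single embryos; that of ML01591a was −1.16 to −0.81 without single embryos but turned to 0.66 with a library group term and 0.74 in the first library group alone, and was −0.03 there without 12 hpf (a setting chosen after seeing the data). The share difference of 44.1 percentage points was 42.9 to 45.5 without single embryos and 17.4 within the first group, with 3 late embryos there. The group difference at 13 and 20 hpf was −0.43 to 0.71 for ML009152a and −0.97 to −0.65 for ML01591a without single embryos.

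The enzymes higher in the late window numbered 7 in each leave-one-out fit (median log2 fold change 3.64 to 3.87), 2 in the first group (fewer models and embryos tested) and 3 there without 12 hpf; the median was 3.13 with the group term and 2.48 in the first group. Without a filter 10 were tested, 9 were higher and 1 was lower. Of all models called in that fit, 73.6% were higher. Enzymes differing between hours numbered 2 to 5 without single embryos. Of the 6852 models tested, 3046 were higher and 2178 lower, against 1720 and 1008 of the same models with the group term. In the first group 804 and 676 of 6058 were, and 662 and 363 of 6272 there without 12 hpf. Without a filter 7284 models were higher and 2616 lower (median log2 fold change 1.00). Between hours 271 of 8940 models differed, and 596 did with the DESeq2 likelihood ratio test. Within the second group r turned to −0.66 (ML13046a) and −0.64 (ML082715a) with ML009152a, and to −0.19 (ML128431a), −0.13 (ML148939a) and −0.26 (ML148940a) with ML01591a. The causes were not tested. Depth limits ML009152a before 10 hpf, where no embryo held more than 12 of its counts. No paired analysis was possible because the labels give no replicate numbers (those used here follow accession order) and every early time point has 1 embryo.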
